A study of Mus musculus with 6 samples.

Results

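Switching on DNMAML-ER in Beko cells was followed on 2 arrays, 1 from cells given hydroxytamoxifen (OHT) and 1 from cells given its vehicle ethanol. Beko is a mouse T-lineage leukaemia cell line. Every probe set of the deposited table was compared as its log2 level with OHT minus its log2 level with ethanol (1 on this scale is 2-fold). Probe sets were kept where their highest level over all 6 arrays of the series reached the median over probe sets of the mean level, a floor of 5.54, which left 12150 of 22414. Each probe set is named by 1 mouse Ensembl gene ID and is called a gene here.

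The series holds 6 conditions with 1 array each. The pair described here is the Beko line infected with DNMAML-ER and selected, given OHT at 0.75 μg/mL or ethanol for 48 h, so the ethanol cells carried the fusion too. A line infected with Notch1-ER and selected had the same OHT dose, vehicle and time, and uninfected cells had DAPT at 10 μM or DMSO for 24 h. Whether a selected line was a clone or a pool, and how strongly it made its fusion, is not stated in the labels. The precision of all values is limited by the number of arrays, no difference has a replicate check, and no test of the pair is possible.

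Notch is a cell surface receptor whose intracellular part is cut free by γ-secretase and travels to the nucleus. There it joins the DNA-binding protein RBPJ, and Mastermind-like proteins bind the pair and bring in histone acetyltransferases that switch target genes on. DNMAML is a dominant-negative Mastermind that takes its place in the complex without this activity, and the oestrogen receptor (ER) part of the fusion keeps it idle until OHT binds. In T-cell precursors and in T-cell leukaemia, Notch signalling is known for sustaining T-lineage identity and growth. DAPT blocks γ-secretase and so acts upstream of the step that DNMAML blocks.

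The files pair no ID with a symbol, and 0 of the 22414 IDs matched the reference gene table. No gene is therefore given a name or function, and the levels of Mastermind, oestrogen receptor, T-lineage markers and markers of other cell types were not analysed here. The results describe groups of genes by their direction, level and behaviour on the other arrays, with 2 IDs printed in each direction.

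More genes were higher than lower once DNMAML-ER was switched on. At least 2-fold, 62 genes were higher (0.51% of the 12150) and 34 were lower (0.28%). The middle of the distribution hardly moved, with a median difference of 0.01 and quartiles of -0.13 and 0.16. At a size of 1.2-fold, 1694 genes (13.9%) were higher and 1338 (11%) lower. The split was 293 (2.41%) against 160 (1.32%) at 1.5-fold. It was 16 (0.132%) against 6 (0.0494%) at 3-fold, and 7 (0.0576%) against 2 (0.0165%) at 4-fold. Higher genes thus outnumbered lower ones at each of these sizes. At 2-fold the other pairs leaned the same way. With DAPT 128 genes were higher and 70 lower, and with OHT in the Notch1-ER line 46 and 18. Of the genes past 2-fold, 64.6% were higher with DAPT, 71.9% with Notch1-ER and 64.6% with DNMAML-ER. With DAPT the lean was nearly absent at 3-fold (23 and 22) and absent at 4-fold (7 and 9). With Notch1-ER it was absent at 1.2-fold (1139 and 1161). The 2 ethanol arrays, 1 of which is the vehicle of the DNMAML-ER pair, come from lines with different fusions and were nearly even at the small sizes. Of the 12150 genes, 863 (7.1%) were at least 1.2-fold higher and 851 (7%) lower in the Notch1-ER than in the DNMAML-ER ethanol cells. At 1.5-fold the numbers were 61 (0.502%) and 64 (0.527%), and at 2-fold they were 8 and 5. In bulk RNA, fewer cells making a transcript and less of it per cell cannot be told apart.

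The 2-fold limit does not fall in a gap. The 3 genes just inside it had differences of 1.01, 1.01 and 1.02 among the higher genes and -1.01, -1.04 and -1.09 among the lower ones. The 3 just outside had 0.99 in each case among the higher genes, and -0.99 in each case among the lower ones.

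The higher genes started from lower levels than the lower genes did. With ethanol the 62 higher genes had levels from 2.73 to 10.50 with a median of 6.17, and with OHT from 4.41 to 11.79 with a median of 7.59. Of these, 40 were at or above the floor on both arrays and 16 went from below it with ethanol to at or above it with OHT. The other 6 lay below it on both arrays and were kept only because the DAPT array reached it. With ethanol, levels of the 34 lower genes ran from 5.03 to 12.22 around a median of 7.85. With OHT their median was 6.74, over a range from 2.24 to 11.09. Among them 23 stayed at or above the floor, 8 went below it and 3 were below it on both arrays. All 3 reached it on the Notch1-ER OHT array, and 1 of them on that array only. Choosing genes by this difference itself favours a low start for the higher genes and a high start for the lower ones, so these medians are a description only.

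**Figure D1:**
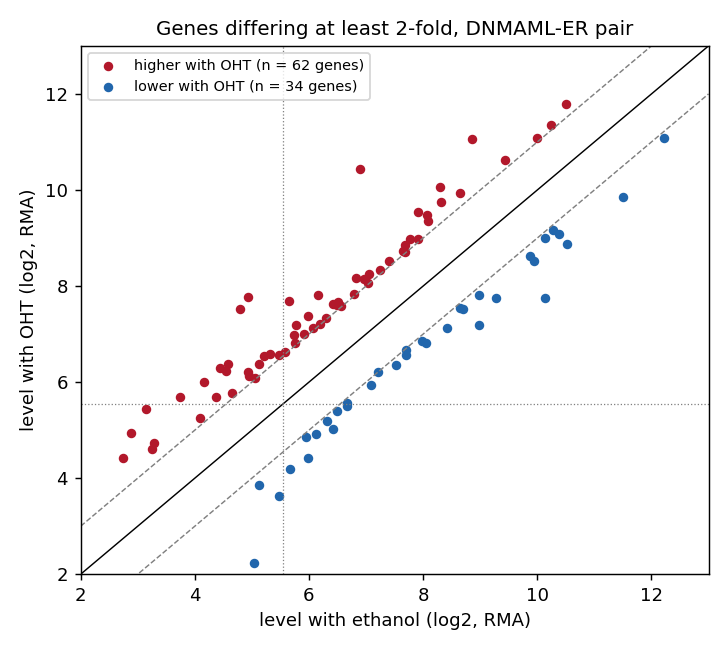
The 96 genes that differed at least 2-fold in the DNMAML-ER pair, by their log2 level with ethanol (horizontal axis) and with OHT (vertical axis), 1 array each. The solid line marks equal levels, the dashed lines a 2-fold difference and the dotted lines the floor of 5.54; 40 of the 62 higher genes and 23 of the 34 lower genes lie at or above the floor on both arrays.

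Differences were also seen among strongly expressed genes, where arrays scatter least. The kept genes were cut into 4 bins by their mean level on the 2 arrays of the pair. In the lowest bin of 3038 genes, with mean levels up to 6.29, 23 genes were 2-fold higher and 12 lower, and the differences had a standard deviation across genes of 0.31. In the highest bin, also of 3038 genes and with mean levels from 8.85, 8 were higher and 9 lower, with a standard deviation of 0.24. Between the ethanol arrays the standard deviation went from 0.24 in the lowest bin to 0.13 in the highest. Over all bins they were 2-fold apart in 13 genes (0.107%), of which 11 lay in the lowest bin and 1 in the highest. In the highest bin 17 genes thus differed 2-fold in the pair and 1 between the ethanol arrays, which share the DNMAML-ER ethanol array with it. At 1.5-fold the highest bin held 53 higher and 20 lower genes, against 5 between the ethanol arrays.

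The gene with the largest difference was ENSMUSG00000029530. Its log2 level was 6.90 with ethanol and 10.43 with OHT in the DNMAML-ER line, 11.6-fold higher. In uninfected cells it was 7.12 with DMSO and 11.21 with DAPT. In the Notch1-ER line it was 6.73 with ethanol and 5.57 with OHT. The DNMAML-ER OHT and DAPT arrays stood apart above the other 4, and the Notch1-ER OHT array was the lowest. Among the 12150 genes it ranked 1 from the highest with DAPT and with OHT in the DNMAML-ER line.

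ENSMUSG00000076928 was next among the higher genes that reached the floor in the pair. It went from 4.93 with ethanol to 7.77 with OHT in the DNMAML-ER line, 7.16-fold higher. In uninfected cells it was 5.89 with DMSO and 8.58 with DAPT. The Notch1-ER line had 5.22 with ethanol and 4.59 with OHT. Again the DNMAML-ER OHT and DAPT arrays were the highest and the Notch1-ER OHT array the lowest. The vehicle levels in both fusion lines and the Notch1-ER OHT level lay below the floor, so the fold is read from a low start.

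Among lower genes that reached the floor in the pair, ENSMUSG00000025905 had the largest difference. It was at 10.13 with ethanol and 7.75 with OHT, 5.22-fold lower, and all its levels lay above the floor. It was at 10.36 with DMSO and 8.41 with DAPT. In the Notch1-ER line it was at 10.60 with ethanol and 10.20 with OHT, 1.33-fold lower. The DAPT and DNMAML-ER OHT arrays thus lay below the other 4, which lay together. ENSMUSG00000040964 followed, at 8.98 with ethanol and 7.20 with OHT, 3.44-fold lower. It was at 9.46 with DMSO and 7.77 with DAPT. In the Notch1-ER line it was at 9.36 with ethanol and 8.48 with OHT, 1.84-fold lower, so OHT went with a lower level in both lines. The lowest difference of all, -2.79, belonged to a gene below the floor on both arrays, at 5.03 and 2.24.

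**Figure D2:**
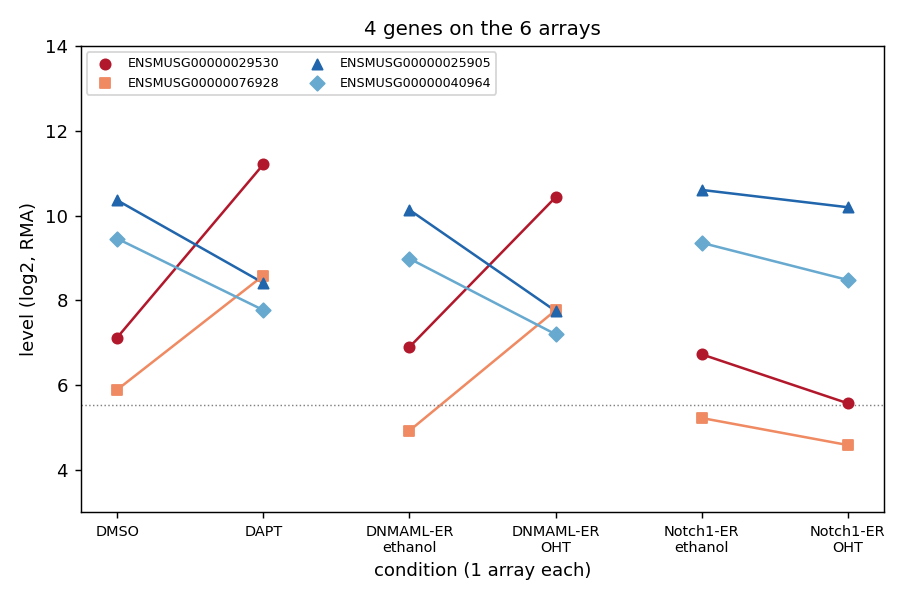
Log2 levels (vertical axis) of the 4 genes printed by ID on the 6 arrays (horizontal axis), with a line joining vehicle and treatment of each pair and a dotted line at the floor of 5.54. ENSMUSG00000029530 and ENSMUSG00000076928 are highest on the DAPT and DNMAML-ER OHT arrays, and ENSMUSG00000025905 and ENSMUSG00000040964 are lowest there.

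The members were then read in the other pairs, which share no array with this one. The floor was set on the highest of all 6 arrays, so a gene could be a member because it was high with DAPT or Notch1-ER. The readings are therefore given for members that reached the floor on the DNMAML-ER arrays themselves, 56 of the 62 higher and 31 of the 34 lower genes. They are set beside all 11688 genes that did so.

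Most of these genes lay on the same side with DAPT, the inhibitor that acts upstream. Of the 56 higher genes, 42 (75%) were at least 1.5-fold higher with DAPT, where 4.85% of the 11688 genes were. A further 13 lay within 1.5-fold (23.2%, against 92.6%), and 1 was at least 1.5-fold lower (1.79%, against 2.56%). Of the 31 lower genes, 21 (67.7%) were at least 1.5-fold lower with DAPT, against 2.56% of the 11688. Another 6 lay within 1.5-fold (19.4%, against 92.6%), and 4 were at least 1.5-fold higher (12.9%, against 4.85%). Of these 4, 2 were at least 2-fold higher (6.45% of the 31, against 0.856%). The share on the opposite side with DAPT was thus also above that over all genes for the lower members. With the genes chosen at 1.5-fold in place of 2-fold, the shares were 54.7% of 278 and 37.2% of 148.

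The genes with the widest differences mostly differed with DAPT too. All 5 genes at least 4-fold higher with DNMAML-ER were at least 2-fold higher with DAPT, where 0.856% of the 11688 genes were, as were 9 of the 13 at least 3-fold higher. The 1 gene at least 4-fold lower was at least 2-fold lower with DAPT, where 0.488% of the 11688 were, as were 2 of the 4 at least 3-fold lower. At the 1.5-fold reading with DAPT, the counts were 11 of 13 higher and 3 of 4 lower genes past 3-fold. They were 31 of 43 and 18 of 27 for genes between 2-fold and 3-fold. The difference between these shares was not tested.

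Among these members the median differences with DAPT were the smaller ones, which choosing on DNMAML-ER favours. The higher genes had a median difference of 1.2 with DNMAML-ER, which chose them, and 1.00 with DAPT, and the lower genes -1.17 and -0.82. Over the 11688 genes the median with DAPT was 0.02. Over all kept genes the differences were wider with DAPT, with a standard deviation of 0.36 against 0.28 with DNMAML-ER. In either direction, 198 kept genes differed at least 2-fold with DAPT and 96 with DNMAML-ER. At 1.5-fold the numbers were 972 and 453. The DNMAML-ER difference was the larger in 36 of the 56 higher genes and in 22 of the 31 lower genes, a comparison that choosing on DNMAML-ER favours. Treatment lasted 24 h for DAPT and 48 h for OHT. By level, DAPT was the highest of the 6 arrays for 30 of the 56 higher genes, as it was for 29.3% of the 11688, and DNMAML-ER with OHT for the other 26, against 12.4%. Among the 31 lower genes, DNMAML-ER with OHT was the lowest array in 14 (against 10.4%), DAPT in 13 (against 29.6%) and DMSO in 4 (against 20.4%). Choosing genes on the DNMAML-ER pair favours its OHT array as the most extreme one and excludes its ethanol array. These counts by array are therefore a description only.

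**Figure D3:**
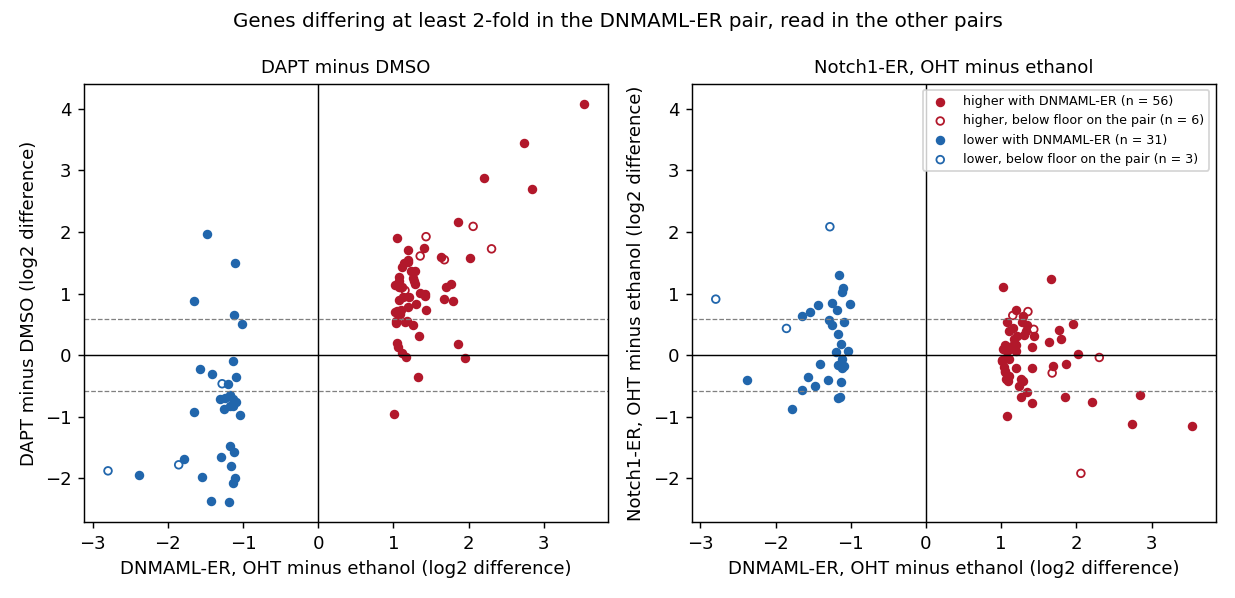
Log2 differences of the 96 genes in the DNMAML-ER pair (horizontal axes) against those in the DAPT pair (left) and the Notch1-ER pair (right). Filled points are members that reached the floor on the DNMAML-ER arrays, open points the 6 higher and 3 lower genes that did not, and dashed lines mark 1.5-fold; 42 of the 56 higher and 21 of the 31 lower filled points pass it on the same side with DAPT, and 4 and 3 do with Notch1-ER.

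OHT was also given to the Notch1-ER line, where it switches on the Notch1 fusion. In each line OHT itself and the fusion it switches on cannot be told apart, so this pair is no reading of OHT alone. Of the 56 genes higher with OHT in the DNMAML-ER line, 4 (7.14%) were at least 1.5-fold higher with OHT in the Notch1-ER line, where 1.32% of the 11688 genes were. Another 43 of the 56 lay within 1.5-fold there (76.8%, against 97.9%), and 9 were at least 1.5-fold lower (16.1%, against 0.753%). Of the 31 lower genes, 3 (9.68%, against 0.753%) were at least 1.5-fold lower in the Notch1-ER line. A further 19 lay within 1.5-fold (61.3%, against 97.9%), and 9 (29.0%, against 1.32%) were at least 1.5-fold higher. Members thus lay within 1.5-fold there less often than all genes did. At a size of 2-fold, 2 of the 56 were lower in the Notch1-ER line, where 0.145% of the 11688 were, and 3 of the 31 were higher, where 0.325% were.

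Reading both other pairs together sorted the genes further. Among the 56 higher genes, 31 (55.4%) were also at least 1.5-fold higher with DAPT and within 1.5-fold with Notch1-ER, as were 4.48% of the 11688. Another 8 (14.3%, against 0.231%) were higher with DAPT and lower with Notch1-ER. Among the 31 lower genes, 12 (38.7%, against 2.18%) were lower with DAPT and within 1.5-fold with Notch1-ER, and 7 (22.6%, against 0.257%) were lower with DAPT and higher with Notch1-ER. Genes that went with OHT in both fusion lines but lay within 1.5-fold with DAPT numbered 1 of the 56 (1.79%, against 0.924%) and 1 of the 31 (3.23%, against 0.402%). Of the 4 higher genes that followed OHT in both lines, 3 were also at least 1.5-fold higher with DAPT (5.36% of the 56, against 0.137%). Of the 3 lower ones, 2 were also at least 1.5-fold lower with DAPT (6.45% of the 31, against 0.12%). The part of OHT itself in these genes was not tested.

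Some members lay within 1.5-fold in both other pairs, 11 of the 56 higher genes (19.6%) and 4 of the 31 lower genes (12.9%), where 91.3% of the 11688 did. Their differences ran from 1.04 to 1.95 for the higher genes and from -1.57 to -1.09 for the lower ones. Of the 11, 6 were below the floor on 1 array of the pair, as were all 4 lower genes. The same held for 10 of the other 45 higher genes and 4 of the other 27 lower genes. The median of the higher level in the pair was 6.55 for the 11, against 7.77 for the other higher genes. For the 4 it was 6.27, against 8.65. The part of array scatter at low levels in these genes was not tested.

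The OHT array of the DNMAML-ER line stood apart from both Notch1-ER arrays for these members. It was above both in all 56 higher genes, where this held for 36.5% of the 11688. It was below both in all 31 lower genes, where this held for 35.2%. The OHT array was used to choose the genes, so these counts are a description.

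**Figure D4:**
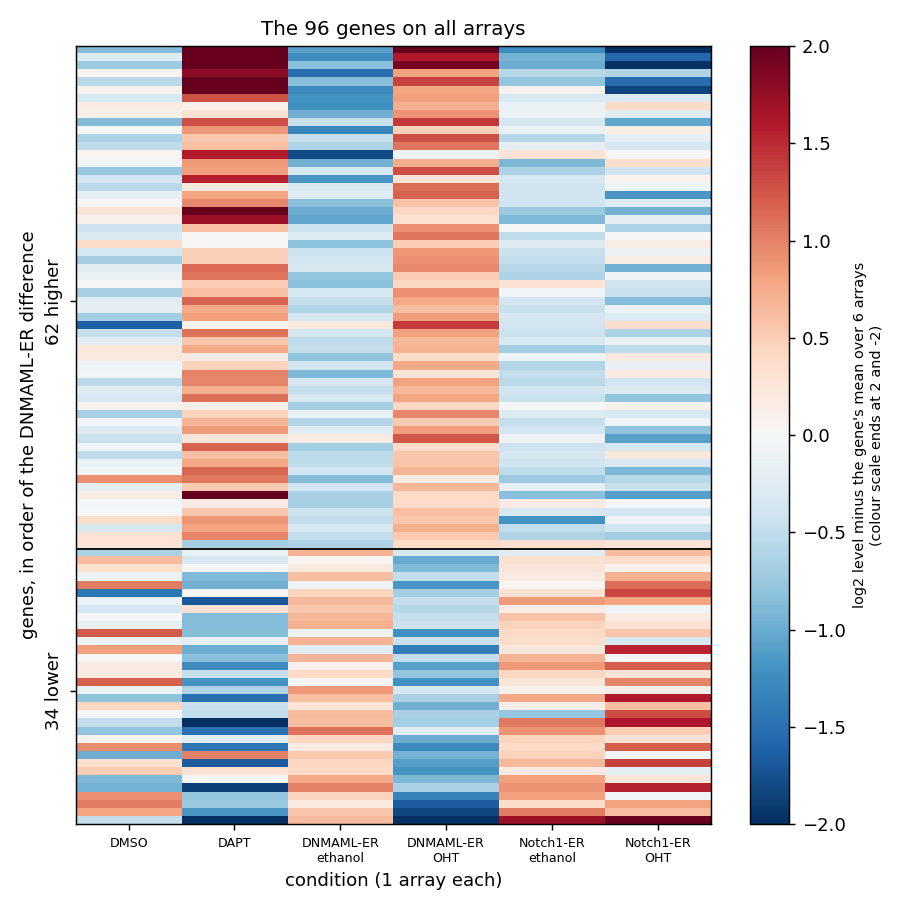
Log2 levels of the 96 genes (rows, in order of the DNMAML-ER difference, 62 higher above the line and 34 lower below it) on the 6 arrays (columns), each minus the gene's mean over the arrays. The DAPT and DNMAML-ER OHT columns share colours in most rows; 6 of the higher genes reached the floor only on the DAPT array and 1 of the lower genes only on the Notch1-ER OHT array, so their colours there were a condition of being shown.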

How the data were processed

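The deposited values are log2 levels that the authors made with RMA, per the submitters' processing notes, from biotin-labelled total RNA on Affymetrix arrays, per the labels. RMA corrects each array's background, equalises the distributions and summarises probes, so a change in total RNA per cell would be absorbed. Neither the labels nor the table state the array model, annotation release or build. Values ran from 1.51 to 14.0 with 0 missing, and array medians from 5.43 to 5.61. Differences, counts by size and the floor were computed with Python 3.11.15 and pandas 2.3.3. The count at 2-fold was tested on simulated data. That simulation had little scatter and shifted only genes well above the floor, so it checked neither the floor nor counts at low levels. Quantile and cyclic loess normalizations used limma 3.58.1 in R 4.3.3. The labels name the tamoxifen metabolite differently from the design text, so it is called OHT.

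The members and lists were chosen with earlier results of these data known. Genes were to be named as the 20 with the largest differences in each direction and list members past 1.5-fold. With no symbols, the 24 gene lists were not analysed here. The 2 genes at each end that reached the floor on the pair were printed by ID.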

Additional observations from a re-analysis of the deposited data

Results flagged for a closer look

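For some genes the OHT minus ethanol difference had opposite signs in the lines carrying DNMAML-ER and Notch1-ER. Of all 62 higher members, 29 (46.8%) had opposite signs and 33 the same sign. Of all 34 lower members, 19 (55.9%) had opposite signs and 15 the same, so by sign the split was near even. These counts include the 6 higher and 3 lower members below the floor on the pair. Over all kept genes the median Notch1-ER difference was -0.01. Each line has 1 array per condition, and whether the lines differ was not tested. ENSMUSG00000029530 had a log2 difference of 3.53 in the DNMAML-ER line and -1.16 in the Notch1-ER line. ENSMUSG00000076928 had 2.84 and -0.64. Of the 56 genes 2-fold higher in the DNMAML-ER line that reached the floor on its arrays, 2 were at least 2-fold lower in the Notch1-ER line. Over all 11688 genes that reached this floor, 0.145% were. Of the 31 lower genes, 3 were at least 2-fold higher in the Notch1-ER line, against 0.325% of the 11688.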

How the results depend on the processing

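The counts of 62 higher and 34 lower genes stayed within 1.5 times under quantile normalization, cyclic loess, a floor on the mean level and a floor on the 2 DNMAML-ER arrays. Without a floor 53 genes were lower, because more genes enter, and 87 were higher. At 1.5-fold the counts were 453 in all, 293 higher and 160 lower. Read with all 62 and 34 members, 48 (77.4%) and 23 (67.6%) were at least 1.5-fold on the same side with DAPT, but 6 of the 48 were members only through their DAPT level. Without a floor these shares were lower, 62.1% of the 87 higher and 54.7% of the 53 lower genes. The readings in the other pairs, and the floor used for them, were chosen after seeing the data. The differences of the 4 genes printed by ID moved by at most 0.067 under either normalization. Both normalizations were applied to the deposited RMA values, whose distributions RMA had already equalised, so they are weak checks. The alternatives for gene lists were not run, because no list could be matched. No paired analysis was possible because each condition has 1 array.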
